A study of Mus musculus with 16 samples.

Results

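The ribosomal protein pseudogenes were the 118 rows, of the 23179 genes listed, whose symbol starts with Rpl or Rps and contains -ps. Each was read beside its parent gene, the symbol before -ps, and the 118 members had 49 distinct parents, all listed. Of these parents 18 had 1 pseudogene in the table, 15 had 2, and the others had 3 to 7. The mouse annotation (GENCODE M21, GRCm38) typed 110 members as processed pseudogenes, 5 as transcribed processed pseudogenes and 3 as protein coding (Rpl10-ps3, Rpl9-ps6 and Rps12-ps3). By position 15 members lay in an intron of another gene on the same strand, 33 in an intron on the opposite strand, 4 overlapped an exon, and 69 overlapped no other annotated gene, with some members in more than 1 of the first 3 classes.

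Ribosomal proteins are the protein parts of the small (Rps) and large (Rpl) ribosomal subunits, and their messages are short and among the most abundant in any cell. A processed pseudogene is a copy of such a message that was reverse transcribed and inserted elsewhere in the genome, so it lacks introns and usually lacks a promoter of its own. Because a copy can match the coding sequence of its parent base for base, short reads of the parent can be placed on the copy as well, and a program that shares reads between transcripts decides how many each receives.

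Total RNA was measured by stranded RNA-Seq in 16 libraries of normal mammary fat pad from female C57BL/6N mice (genotype wt), 1 mouse per library and 4 per group, bought at 8 weeks of age. CON-LFD mice received the control diet D12450J throughout, and the other 3 groups were first made obese on a 60% fat diet (D12492): DIO-HFD mice stayed on it, DIO-LFD mice were moved to a low-fat diet, and DIO-VSG mice had a vertical sleeve gastrectomy, which removes part of the stomach, together with a low-fat diet. Mice without gastrectomy had sham surgery, and all mice, controls included, carried E0771 mammary cancer cells, injected into mammary fat pad 4 at 22 weeks after the first randomization, with the opposite pad 9 taken for RNA at the endpoint. The labels give E0771 as the cell line of every sample, although the tissue is the uninjected pad, and their extraction note names DNA, although the libraries are given as RNA. Whether DNA contributed reads was not tested. The comparisons asked whether the pseudogenes, and their ratios to the parents, differed between the 4 groups.

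Recovered totals were 46907377 to 57610899 reads per library, and all values below are normalized counts per library, given for replicates 1 to 4 of a group in that order, unless stated. Libraries of 1 group differed in cell type markers: summed B cell markers (9 of 9 listed, none at 0 in all libraries) ran from 322 to 77482 in CON-LFD and 1105 to 102737 in DIO-HFD, against 18397 to 42078 in DIO-LFD and 69977 to 81296 in DIO-VSG. The 7 adipocyte markers summed to 348554 to 1277160.0 and the 7 mammary epithelial markers to 20422 to 83023, so the defining markers of the labelled tissue were present in every library. In bulk tissue, fewer cells of a type and less RNA per cell cannot be told apart.

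The sequences show how little separates a copy from its parent. For each member below, 1 stretch of 76 bases, the read length, was taken from the annotated transcript on GRCm38 where it differs most from the coding sequence of the parent, and capitals mark the bases that differ. Rps6-ps4 (stretch at chr2:75191747-75191822, minus strand), the member of highest mean count, and Rpl10-ps1 (chr2:105554770-105554845, minus strand) had no differing base over their whole length, so 1 line stands for copy and parent.
Rps6-ps4 and Rps6: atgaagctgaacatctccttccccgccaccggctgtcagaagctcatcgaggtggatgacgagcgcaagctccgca
Rpl10-ps1 and Rpl10: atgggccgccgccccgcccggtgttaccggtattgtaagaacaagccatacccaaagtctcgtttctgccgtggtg
Rpl23a-ps3 (chr14:34170732-34170807, plus strand) differs from Rpl23a at 1 base in 468, and it had the widest range of log2 values among the members.
Rpl23a-ps3: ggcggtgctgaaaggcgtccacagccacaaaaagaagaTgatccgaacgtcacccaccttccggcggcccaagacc
Rpl23a: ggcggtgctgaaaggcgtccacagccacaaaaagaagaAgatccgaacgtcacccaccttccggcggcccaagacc
Rpl14-ps1 (chr7:45325493-45325568, plus strand) has 4 differing bases and 3 gap bases, and no gene other than Rpl14 holds any of its 76-base windows.
Rpl14-ps1: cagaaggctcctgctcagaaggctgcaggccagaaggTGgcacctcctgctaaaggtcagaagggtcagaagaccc
Rpl14: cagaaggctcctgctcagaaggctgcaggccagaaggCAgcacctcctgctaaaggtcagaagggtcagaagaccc
Rpl35a-ps2 (chr1:181242128-181242203, minus strand) stands for a set of 4 copies of identical sequence.
Rpl35a-ps2: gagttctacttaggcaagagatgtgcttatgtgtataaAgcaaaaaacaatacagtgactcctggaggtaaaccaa
Rpl35a: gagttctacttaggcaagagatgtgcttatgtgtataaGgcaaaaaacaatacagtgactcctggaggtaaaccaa
Rps15-ps2 (chr6:58017664-58017739, plus strand) is shown as a less similar copy of low count.
Rps15-ps2: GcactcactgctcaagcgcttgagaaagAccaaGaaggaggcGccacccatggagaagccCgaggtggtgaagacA
Rps15: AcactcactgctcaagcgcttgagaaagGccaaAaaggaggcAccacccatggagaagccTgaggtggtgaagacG

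Over the aligned part, identity to the parent transcript was 98.8% at the median and 87.5% at the lowest for the 117 members that could be aligned. On that part 14 members were identical. The member that could not be aligned was Rpl18-ps1, and Rpl36a-ps3 was closer to Rpl36al than to Rpl36a. Cut into windows of 76 bases, 13 members had every window in the parent, 33 had 50% to under 100% of them there, and 72 had under 50%. Only 5 members shared no window with any other annotated gene.

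Counts of the pseudogenes spanned from about a single read to the level of the parents. Mean normalized counts over 16 libraries were at least 1000 for 34 members, 100 to under 1000 for 16, 10 to under 100 for 35 and under 10 for 33. The 13 members wholly contained in the parent had a median of 9677 normalized counts and the lowest of them had 267. Members with 50% to under 100% of windows in the parent had a median of 826, and those with under 50% had a median of 16.1, although the highest of the latter reached 6060. Across the 118 members, which share libraries and in part parents, Spearman's rho between the share of windows in the parent and the mean count was 0.61, given as a description.

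**Figure D1:**
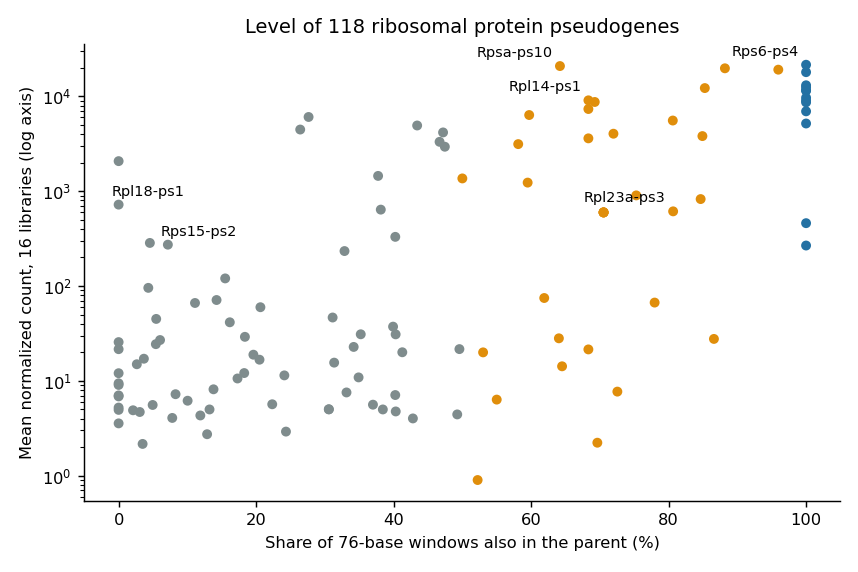
Mean normalized count of each of the 118 ribosomal protein pseudogenes over 16 libraries (log axis) against the share of its 76-base windows that also occur in the parent transcript. Blue points are the 13 members with every window in the parent (median 9677), orange points those with 50% to under 100% (median 826), and grey points those with under 50% (median 16.1).

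The 10 members of highest mean were Rps6-ps4 (21543), Rpsa-ps10 (20871), Rpl3-ps1 (19761), Rpl10-ps3 (19115), Rps23-ps1 (17996), Rpl10a-ps1 (13083), Rpl28-ps1 (12469), Rpl19-ps11 (12227), Rps16-ps2 (11582) and Rps13-ps2 (11488). Their parents include Rps6, the small subunit protein phosphorylated by S6 kinase, Rpsa, also known as the laminin receptor, Rpl3, near the site of peptide bond formation, and Rps23, at the decoding centre. Per kilobase of transcript, Rps6-ps4 stood at 28724 normalized counts and Rps6 at 9449, and Rps23-ps1 at 42342 against 4395 for Rps23. In all, 25 members exceeded the parent per kilobase, 11 of them among the 13 with every window in the parent, and the parent lengths include untranslated sequence that several copies lack.

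Only 91 members passed the filter of 10 normalized counts in 4 libraries and were tested, and the 27 that did not had means of at most 7.54. Rpl30-ps8 had reads in a single DIO-VSG library (14.4 normalized counts), and it and Rpl12-ps1 were the 2 members at 0 in every library of at least 1 group.

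The levels of the pseudogenes did not separate any pair of groups after adjustment. In limma fits over all 21218 tested genes, 0 members passed an adjusted p of 0.05 in any of the 6 comparisons, beside 8 genes (0.0377%) for DIO-HFD against CON-LFD, 1 gene (0.00471%) for DIO-LFD against CON-LFD, and 0 genes (0%) in the other 4. At an unadjusted p of 0.05 the DIO-VSG libraries were above CON-LFD for 35 of 91 members and below for 1, while 10.2% of all tested genes were higher and 7.55% lower. DIO-VSG was above DIO-LFD for 25 members and below for 2 (all genes 4.3% and 5.41%), and above DIO-HFD for 18 and below for 2 (5.05% and 8.12%). DIO-HFD was above CON-LFD for 14 members and below for 4 (5.23% and 7.66%), and DIO-LFD above CON-LFD for 16 and below for 6 (3.23% and 3.03%). Between DIO-LFD and DIO-HFD only 1 member was higher and 0 lower (5.37% and 3.16%). Spearman's rho across genes between GC content and a library's deviation from the mean of all libraries, a description, was 0.02 to 0.20 in DIO-LFD and -0.14 to -0.05 in DIO-VSG, which do not overlap, beside -0.21 to 0.04 in CON-LFD and -0.04 to 0.05 in DIO-HFD, and the part of GC content in the member levels was not tested.

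Parents showed the same directions. Of the 49 parents, 42 were higher in DIO-VSG than in CON-LFD at an unadjusted p of 0.05 and 0 were lower, 18 and 0 against DIO-LFD, 14 and 0 against DIO-HFD, 11 and 1 for DIO-HFD against CON-LFD, 13 and 1 for DIO-LFD against CON-LFD, and 0 and 0 for DIO-LFD against DIO-HFD. The median log2 difference of DIO-VSG from CON-LFD was 0.45 over the tested members and 0.46 over the parents, beside -0.02 over all tested genes. With 1 library left out or with other libraries in the fit, some members did pass: fitted on only the 8 libraries of DIO-VSG and DIO-LFD, 23 members passed the adjusted threshold, 21 of them higher in DIO-VSG, among 1582 genes in all. Without CON-LFD replicate 3, 10 members passed, all higher in DIO-VSG than in CON-LFD, among 873 of 21218 genes. With the B cell covariate described below, Rpl21-ps8 and Rps24-ps3 passed as lower in DIO-LFD than in CON-LFD, among 7 genes. Rpl23a-ps3 passed as lower in DIO-VSG than in DIO-HFD without DIO-VSG replicate 2, as the only 1 of all genes. Without CON-LFD replicate 2, Rpl21-ps11 passed as higher than in CON-LFD in DIO-LFD, among 6 genes, and in DIO-VSG, among 2 genes. That replicate was the only CON-LFD library with reads of Rpl21-ps11.

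Related genes were described by list. Of the 86 tested cytosolic ribosomal protein genes, 70 were higher in DIO-VSG than in CON-LFD at an unadjusted p of 0.05 and 0 lower, with a median log2 difference of 0.42. In DIO-HFD against CON-LFD 17 of them were higher and 1 lower, and 1 of the 86, no parent of a member, passed the adjusted threshold; in DIO-LFD against CON-LFD 23 were higher and 1 lower. The lists that follow are for DIO-VSG against CON-LFD, where 10.2% of all tested genes were higher and 7.55% lower at this threshold. Among 17 translation factors whose messages carry the same 5-prime TOP signal as ribosomal protein messages, 3 were higher and 1 lower with a median of 0.12. Ribosome assembly factors counted 3 higher and 0 lower of 24, genes of mTOR control 1 higher and 3 lower of 14, snoRNA host genes 2 higher and 0 lower of 9, and nuclear retained RNAs 0 higher and 1 lower of 6. Pseudogenes of other families (153 tested) counted 15 higher and 5 lower with a median of 0.06.

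B and T cell markers stood higher in the libraries with high member levels. All 9 B cell markers were higher in DIO-VSG than in CON-LFD at an unadjusted p of 0.05, with a median log2 difference of 3.96, and so were 8 of 10 T cell markers, with a median of 2.70. Summed T cell markers (10 of 10 listed, none at 0 in all libraries) were 1051 to 31911 in CON-LFD, 916 to 46793 in DIO-HFD, 8561 to 17989 in DIO-LFD and 27560.3 to 41903 in DIO-VSG. On the first principal component of the 50 tested members with a mean of at least 100, which held 62.2% of their variance, the DIO-VSG libraries lay at 9.17, 5.59, 5.56 and 4.36, and the 4 libraries with the smallest B cell sums (CON-LFD replicates 2 and 4, DIO-HFD replicates 2 and 3) lay at -5.89, -6.04, -4.47 and -9.61. With the B cell marker score as a covariate, an alternative chosen after seeing the data, the members at an unadjusted p of 0.05 between DIO-VSG and CON-LFD went from 36 to 12, while all genes passing the same rule went from 3771 to 1059. In the other comparisons the members went from 20 to 11 for DIO-VSG against DIO-HFD (all genes 2794 to 2161), 27 to 29 for DIO-VSG against DIO-LFD (2061 to 2203) and 18 to 24 for DIO-HFD against CON-LFD (2735 to 3421). They went from 22 to 28 for DIO-LFD against CON-LFD (all genes 1328 to 2831) and from 1 to 8 for DIO-LFD against DIO-HFD (1809 to 3380). The part of B cell content in the levels was not tested beyond this, and that of T cell content was not tested.

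**Figure D2:**
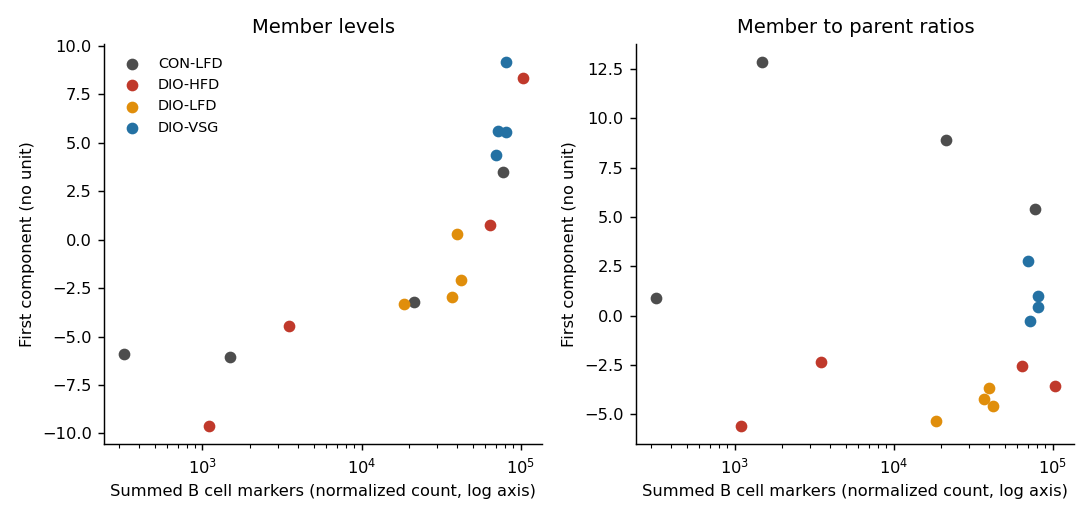
First principal component of the log2 levels of 50 members (left) and of their log2 ratios to the parent (right) against the summed normalized counts of 9 B cell markers (log axis), 1 point per library and 1 colour per group. Left, libraries with more B cell marker RNA mostly lie higher; right, the 4 CON-LFD libraries, with B cell sums from 322 to 77482, lie above all DIO-HFD and DIO-LFD libraries.

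The ratio of a pseudogene to its own parent grouped the libraries in another way. This ratio, on the log2 scale with a pseudocount of 1, cancels changes that copy and parent share. Of 91 member pairs, 24 passed an adjusted p of 0.05 for DIO-HFD against CON-LFD and 31 for DIO-LFD against CON-LFD, where 20.6% and 26.5% of all 189 tested pseudogene pairs of any family passed, members included. Among the 98 pairs outside the ribosomal protein families, 15 (15.3%) and 19 (19.4%) passed, so the excess over the other families is a description without a test. For DIO-VSG, 4 member ratios passed against DIO-HFD (2.12% of all pairs) and 4 against DIO-LFD (2.65%), but 0 passed against CON-LFD (0%, with 21 of 91 member pairs and 34 of all 189 at an unadjusted p of 0.05 in limma). Between DIO-LFD and DIO-HFD 0 passed (0%, with 2 member pairs and 6 of all pairs at an unadjusted p of 0.05). The 4 calls against DIO-HFD, those of Rpl14-ps1, Rpl21-ps8, Rpl18-ps2 and Rpl23a-ps3, became 0 without DIO-VSG replicate 4, 0 with the B cell covariate and 1 with only the 8 libraries compared.

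On the first component of these ratios, which held 55.98% of the variance over 50 members, CON-LFD libraries lay at 8.89, 0.880, 5.40 and 12.8, DIO-VSG at 0.973, -0.288, 0.431 and 2.76, DIO-HFD at -3.56, -2.33, -5.59 and -2.54 and DIO-LFD at -5.37, -4.57, -3.69 and -4.23. CON-LFD and DIO-VSG libraries did not overlap with those of DIO-HFD or DIO-LFD on it, and CON-LFD replicate 2 lay among the DIO-VSG libraries. CON-LFD replicate 4, the most extreme, also held a macrophage marker sum of 111527 (12363 to 61635 in the other 15 libraries) and a skeletal muscle marker sum of 28752.5 (2416 to 4265 in the other CON-LFD libraries). Skeletal muscle sums were also high in DIO-VSG replicate 2 (22586.5) and DIO-LFD replicate 4 (137350.0), and the erythroid marker sum in DIO-LFD replicate 1 (461510.0, against 18104 to 55718 in the other 15), libraries at -0.29, -4.23 and -5.37 on the component. The part of these cell types in the ratios was not tested. By correlation over the same ratios, 10 of the 16 libraries were most similar to a library of their own group. Malat1, a nuclear retained RNA, stood at 78707 to 110286 normalized counts in CON-LFD, 84414 to 105662 in DIO-VSG, 48196 to 95626 in DIO-HFD and 59060.3 to 79957 in DIO-LFD, and its part in the ratios was not tested.

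Called ratios went in both directions. In DIO-HFD relative to CON-LFD, 15 members fell relative to the parent, with mean counts of 9.05 to 19115 (median 7354). The 9 that rose had mean counts of 9.41 to 613 (median 597). In DIO-LFD relative to CON-LFD, 17 fell (285 to 20871, median 7354) and 14 rose (9.41 to 1363, median 464). Among those that rose, 4 in each comparison were copies of Rpl35a with identical sequence. Both sets concern 33 members of 24 parents, and 22 members were called in both DIO-HFD and DIO-LFD, comparisons that share the CON-LFD libraries. These counts depended on the normalization and on which libraries enter. With quantile normalization 10 member ratios passed for DIO-HFD and 12 for DIO-LFD against CON-LFD, beside 17 and 20 of all 189 pairs. Fitted on only the 8 libraries compared, 3 member ratios passed for DIO-HFD and 13 for DIO-LFD against CON-LFD (4 and 23 over all pairs). Without CON-LFD replicate 4 the counts were 13 and 17 (19 and 26 over all pairs). The count was 14 for DIO-HFD without DIO-HFD replicate 3 (23 over all pairs) and 16 for DIO-LFD without DIO-LFD replicate 3 (24 over all pairs). Without CON-LFD replicate 2 the member ratios called for DIO-VSG against CON-LFD went from 0 to 12, and those over all pairs from 0 to 17.

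**Figure D3:**
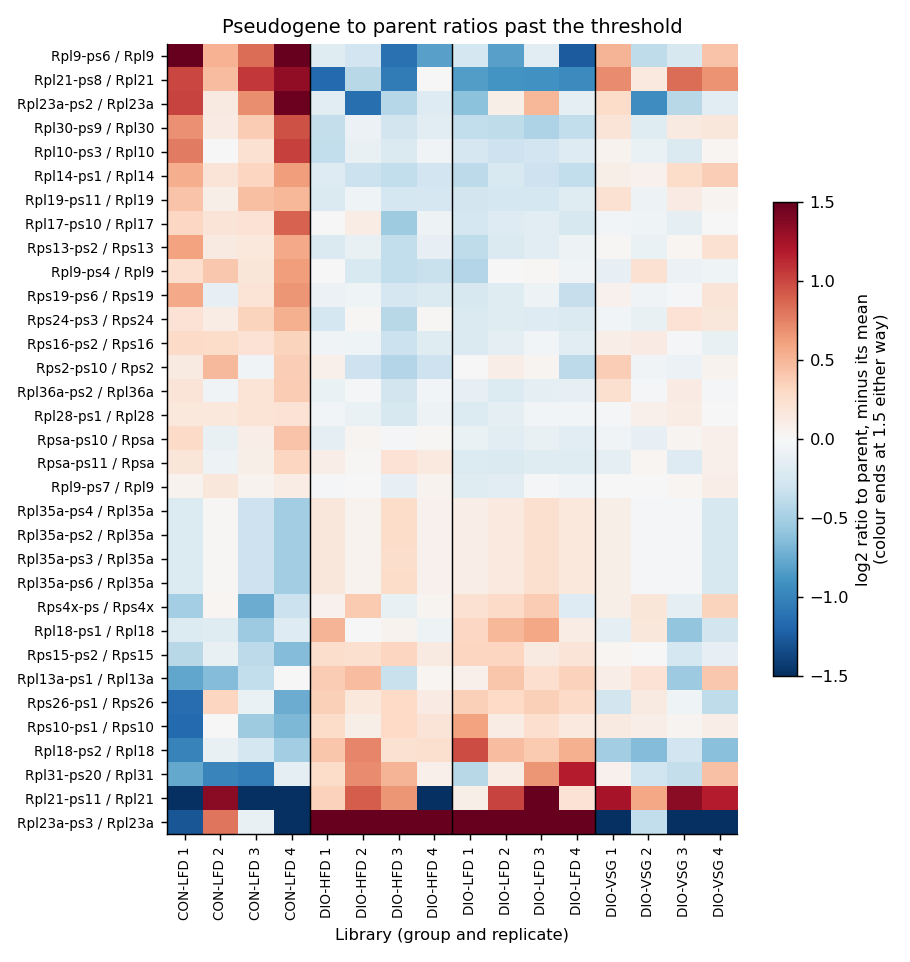
Log2 ratio of pseudogene to parent, minus its mean over 16 libraries, for the 33 members whose ratio passed an adjusted p of 0.05 in any comparison, with libraries in columns by group. Red is above and blue below the mean, with colours ending at 1.5. Most rows in the upper part are red in CON-LFD and blue in DIO-HFD and DIO-LFD, and the lower rows show the reverse.

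Rpl14-ps1, the copy of a large subunit protein gene, shares read-length windows with no gene but Rpl14. It lies at chr7:45324965-45325617, plus strand, within an intron of Trpm4 on the other strand. Its counts were 9948, 8114, 11085 and 9483 in CON-LFD, 10368, 7163, 6058 and 8299.5 in DIO-HFD, 7212, 7736, 8063 and 7061 in DIO-LFD and 11483, 10453, 11508 and 11213 in DIO-VSG. Rpl14 stood at 6095, 6346, 7957 and 5514, 10587, 7994, 6975 and 9066, 8459.5, 8132, 8955 and 8191 and 9659.9, 8955, 8517 and 7765 in the same order of groups. The mean of the parent was lowest in CON-LFD and that of the copy lowest in DIO-LFD, and for each of them alone CON-LFD overlapped with DIO-HFD.

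As a share of the reads of the pair, Rpl14-ps1 took 59.9 ± 3.30% (SD, n = 4) in CON-LFD, 47.8 ± 1.27% in DIO-HFD, 47.1 ± 1.24% in DIO-LFD and 56.2 ± 2.51% in DIO-VSG. Every CON-LFD and DIO-VSG library was above every DIO-HFD and DIO-LFD library, and CON-LFD overlapped with DIO-VSG. The log2 ratio fell by 0.71 in DIO-HFD relative to CON-LFD (SE 0.11, limma adjusted p = 0.0015) and by 0.75 in DIO-LFD (SE 0.11, limma adjusted p = 0.00062). It was higher in DIO-VSG than in DIO-HFD (log2 difference ± SE 0.49 ± 0.11, limma adjusted p = 0.020) and than in DIO-LFD (0.53 ± 0.11, limma adjusted p = 0.010), and between DIO-VSG and CON-LFD it did not pass (-0.22 ± 0.11, limma adjusted p = 0.27). The sum of the pair was 16135 ± 2046 (SD) in CON-LFD, 16628 ± 3384 in DIO-HFD, 15952 ± 755 in DIO-LFD and 19888 ± 940.4 in DIO-VSG. For this sum the first 3 groups overlapped, and the DIO-VSG libraries (18978 to 21143) lay above all DIO-LFD libraries (15252 to 17018) and overlapped with CON-LFD and DIO-HFD.

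**Figure D4:**
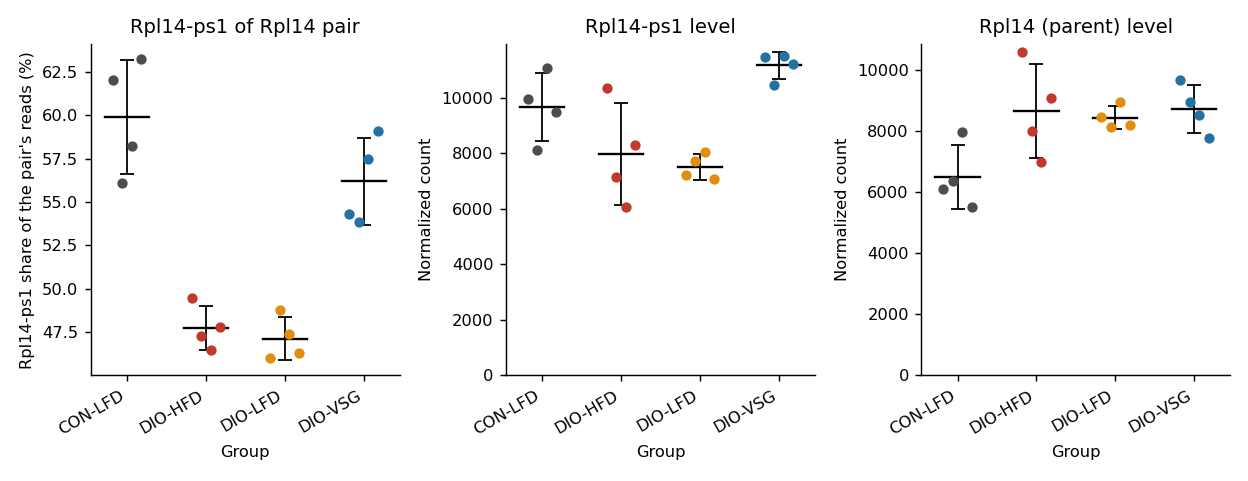
Share of the pair's reads on Rpl14-ps1 (left, axis from 45%), and normalized counts of Rpl14-ps1 (middle) and Rpl14 (right), 1 point per library, with the mean and SD of 4 mice as black line and bar. Shares are 46.0 to 49.5% in DIO-HFD and DIO-LFD and 53.9 to 63.2% in CON-LFD and DIO-VSG.

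Rpl21-ps8 showed the same order with a larger step. This copy of Rpl21, a large subunit protein gene, counted 1857, 1223, 2425 and 1896 in CON-LFD, 894, 1000.4, 553 and 1443 in DIO-HFD, 818, 724, 857 and 757 in DIO-LFD and 2495, 1680.1, 2393 and 2167 in DIO-VSG. Rpl21 itself stood at 2086 to 3207 in CON-LFD and at 3162 to 5543, 3733 to 4451 and 3701 to 4219.5 in the other groups. The mean of the copy was lowest in DIO-LFD and the mean of the parent lowest in CON-LFD. The log2 ratio changed by -1.62 ± 0.25, limma adjusted p = 0.0015, in DIO-HFD and by -1.86 ± 0.25, limma adjusted p = 0.00062, in DIO-LFD relative to CON-LFD. It was higher in DIO-VSG than in DIO-HFD by 1.25 ± 0.25, limma adjusted p = 0.019, and than in DIO-LFD by 1.49 ± 0.25, limma adjusted p = 0.0054. The level of Rpl21-ps8 alone did not pass for DIO-VSG against DIO-LFD in the fit over all groups (log2 difference 1.45 ± 0.25, limma adjusted p = 0.43) but did when only those 8 libraries were fitted (limma adjusted p = 0.012).

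Rpl18-ps2 and Rpl23a-ps3 ran the other way. Rpl18-ps2 (chr6:128313357-128313923, plus strand), a copy of a large subunit protein gene with 40.2% of its windows in the parent, counted 128, 227, 256 and 149 in CON-LFD, 515, 446, 313 and 374 in DIO-HFD, 558, 456, 422 and 427 in DIO-LFD and 269, 228, 290.5 and 218 in DIO-VSG. All DIO-HFD and DIO-LFD libraries were above all CON-LFD and DIO-VSG libraries. Its parent Rpl18 ranged from 9469.6 to 17129 over the 16 libraries. The ratio rose in DIO-HFD (0.88 ± 0.19, limma adjusted p = 0.0076) and in DIO-LFD (1.07 ± 0.19, limma adjusted p = 0.0020) relative to CON-LFD, and was lower in DIO-VSG than in DIO-HFD (-0.92 ± 0.19, limma adjusted p = 0.020) and DIO-LFD (-1.11 ± 0.19, limma adjusted p = 0.0054). This level gave the smallest unadjusted p of any member in DIO-HFD against CON-LFD (log2 difference 1.15 ± 0.22, limma adjusted p = 0.083), and in DIO-LFD against CON-LFD (1.34 ± 0.22, limma adjusted p = 0.13); without CON-LFD replicate 3 the former passed (limma adjusted p = 0.023).

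Rpl23a-ps3 (chr14:34170655-34171122, plus strand) differs by the 1 base shown above from Rpl23a, a large subunit protein near the exit of the peptide tunnel. Its counts were 25.4, 131, 83.02 and 0 in CON-LFD, 567, 720.4, 1466 and 2307 in DIO-HFD, 2066, 569, 518 and 1259 in DIO-LFD and 0, 92.6, 0 and 0 in DIO-VSG. The lowest DIO-HFD or DIO-LFD library, at 518, lay above the highest CON-LFD or DIO-VSG library, at 131. Group means were 59.97 ± 58.98, 1265 ± 798, 1103 ± 725 and 23.2 ± 46.3 (SD, n = 4). The ratio to Rpl23a was higher in DIO-HFD (5.0 ± 1.53, limma adjusted p = 0.034) and DIO-LFD (4.76 ± 1.53, limma adjusted p = 0.036) than in CON-LFD, calls that were lost on leaving out any of 5 and of 6 of the 16 libraries, respectively. With zeros among the libraries the fitted log2 ratios depend on the pseudocount, and for DIO-VSG against DIO-HFD (-8.62 ± 1.53, limma adjusted p = 0.013) they ran from -10.22 to -4.51 over the alternatives. Rpl23a with Rpl23a-ps3 summed to 2831 to 5559.9 in CON-LFD, 5814 to 9382 in DIO-HFD, 6756 to 7813 in DIO-LFD and 6406 to 7407 in DIO-VSG. For this sum DIO-VSG overlapped with DIO-HFD and DIO-LFD. As 16 genes share a window with the copy, its counts are uncertain.

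**Figure D5:**
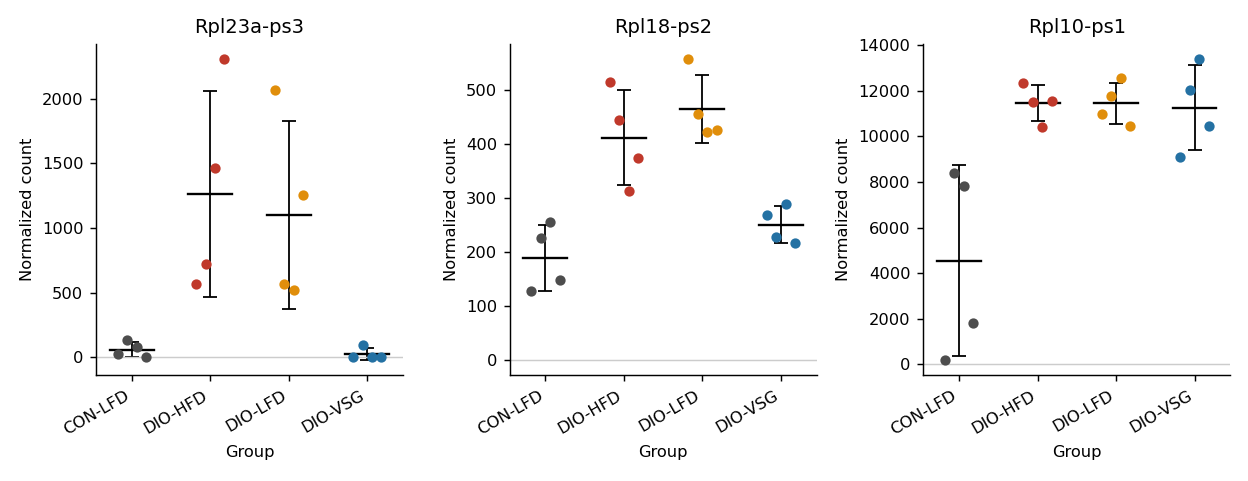
Normalized counts of Rpl23a-ps3 (left), Rpl18-ps2 (middle) and Rpl10-ps1 (right), 1 point per library, with the mean and SD of 4 mice as black line and bar. Rpl23a-ps3 and Rpl18-ps2 are higher in all DIO-HFD and DIO-LFD libraries than in all CON-LFD and DIO-VSG libraries; Rpl10-ps1 is at 172 and 1817 in CON-LFD replicates 1 and 4 and at 7830 or more elsewhere.

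Of the 47 tested members with under 50% of windows in the parent, 4 ratios rose and 3 fell in DIO-HFD relative to CON-LFD, and 8 rose and 3 fell in DIO-LFD, beside 20.6% and 26.5% of all pairs called in either direction. Among those that rose in both, Rps15-ps2 (chr6:58017506-58017943, plus strand), a copy of a small subunit protein gene with 7.16% of windows in the parent, counted 177, 200.4, 217 and 137 in CON-LFD, 396, 279, 251 and 293 in DIO-HFD, 311, 333, 311 and 284 in DIO-LFD and 344, 307, 256 and 271 in DIO-VSG. Every CON-LFD library was below every library of the other groups. Rps15 ranged from 17130.5 to 22584 in CON-LFD and from 15903 to 26229 in DIO-HFD, which overlap. The ratio of Rps15-ps2 to Rps15 rose in DIO-HFD (0.63 ± 0.11, limma adjusted p = 0.0034) and in DIO-LFD (0.63 ± 0.11, limma adjusted p = 0.0017) relative to CON-LFD.

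Rps10-ps1 (chr3:95622278-95622772, plus strand), a copy of another small subunit gene with 32.9% of windows in the parent, counted 91.6, 175, 164 and 114 in CON-LFD, 342, 206, 226 and 259.7 in DIO-HFD, 300.3, 232, 269 and 217 in DIO-LFD and 327, 279, 266 and 272 in DIO-VSG. CON-LFD again lay below all other libraries. The ratio rose in DIO-HFD (0.80 ± 0.19, limma adjusted p = 0.010) and DIO-LFD (0.87 ± 0.19, limma adjusted p = 0.0064), and for DIO-VSG against CON-LFD it did not pass (0.68 ± 0.19, limma adjusted p = 0.16). As a level, Rps10-ps1 had the smallest unadjusted p of any member in DIO-VSG against CON-LFD (log2 difference 1.11 ± 0.21, limma adjusted p = 0.27), followed by Rpl38-ps2 (0.63 ± 0.14, limma adjusted p = 0.27) and Rps25-ps1 (0.58 ± 0.14, limma adjusted p = 0.27). All 3 passed when CON-LFD replicate 3 was left out.

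Of the 13 members with every window in the parent, 3 ratios fell in DIO-HFD and 4 in DIO-LFD relative to CON-LFD, and 0 rose, beside 20.6% and 26.5% of all pairs called in either direction. Rps16-ps2 (chr5:129128077-129128517, minus strand, in an intron of Adgrd1), with every window in the small subunit gene Rps16, took 67.6, 67.3, 66.5 and 68.3% of the reads of the pair in CON-LFD, 62.3, 61.9, 57.8 and 60.04% in DIO-HFD, 59.6, 60.7, 62.4 and 60.2% in DIO-LFD and 64.6, 64.9, 62.6 and 61.2% in DIO-VSG. Its ratio changed by -0.43 ± 0.08, limma adjusted p = 0.0042, in DIO-HFD and by -0.42 ± 0.08, limma adjusted p = 0.0036, in DIO-LFD relative to CON-LFD, although its own level differed by 0.01 ± 0.20 and -0.05 ± 0.20 on the log2 scale. The parent Rps16 differed by 0.45 ± 0.18 in DIO-HFD (limma adjusted p = 0.31).

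Ratios also fell for Rps13-ps2, in whose pair the copy took 85.8 to 89.3% in CON-LFD, 81.1 to 83.7% in DIO-HFD and 80.9 to 84.02% in DIO-LFD, and for Rpl28-ps1, with 70.8 to 71.6%, 64.9 to 67.9% and 65.5 to 67.9%. Rpl19-ps11 took 42.04 to 49.1%, 36.3 to 39.5% and 36.1 to 37.5% and Rpl30-ps9 70.3 to 80.9%, 62.9 to 67.2% and 61.2 to 62.8% in these groups. In each of these 4 pairs the CON-LFD libraries were above all DIO-HFD and DIO-LFD libraries. For Rpl9-ps6, typed as protein coding, the counts were 1531, 858, 1285 and 1340.5 in CON-LFD and 866, 582, 274 and 462 in DIO-HFD, and the ratio to Rpl9 changed by -1.74 ± 0.33, limma adjusted p = 0.0042.

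Of the 10 members of highest mean, 4 had no called ratio in any comparison, while 33 of all 91 tested members had at least 1. Rps6-ps4 counted 21994, 16827, 25433 and 18471 in CON-LFD and 27201, 18284, 13480.1 and 22715 in DIO-HFD, and its ratio to Rps6 differed by -0.10 ± 0.10, limma adjusted p = 0.51. Rps23-ps1 took 79.8 to 82.4% of the reads of its pair over all 16 libraries, Rpl10a-ps1 75.3 to 80.5% and Rpl3-ps1 50.4 to 58.7%. Rpsa-ps10 passed only for DIO-LFD against CON-LFD (-0.31 ± 0.11, limma adjusted p = 0.043), a call lost on leaving out any of 14 of the 16 libraries.

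Rpl10, a late-joining large subunit protein, has an identical coding sequence in Rpl10-ps1 (chr2:105554201-105554845, minus strand) and Rpl10-ps3 (chr9:50344201-50344968, minus strand). Rpl10-ps1 counted 172, 8394, 7830.1 and 1817 in CON-LFD and 10423 to 12329, 10476 to 12544 and 9112 to 13393 in the other groups. Rpl10-ps3 counted 21658, 15711, 20985 and 23156 in CON-LFD, where replicates 1 and 4, low for Rpl10-ps1, were the highest of all libraries. Rpl10 itself stood at 1565, 1958, 2217 and 1416 in CON-LFD and 2274 to 3372 in DIO-HFD. Rpl10 and its 3 copies, Rpl10-ps6 included, summed to 23433 to 36848 over the 16 libraries. The ratio of Rpl10-ps3 to Rpl10 passed in DIO-HFD (-0.69 ± 0.18, limma adjusted p = 0.019) and DIO-LFD (-0.77 ± 0.18, limma adjusted p = 0.010) against CON-LFD, and that of Rpl10-ps1 did not (1.86 ± 0.82, limma adjusted p = 0.13, in DIO-HFD). The DIO-HFD call of Rpl10-ps3 was lost on leaving out either of 2 of the 16 libraries, and its DIO-LFD call was kept without each library.

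Identical copies had the same or nearly the same reads. Rpl35a-ps2, Rpl35a-ps3, Rpl35a-ps4 and Rpl35a-ps6, on 4 chromosomes, carry the same sequence, and their reads were the same in 13 of 16 libraries and differed by at most 2 reads in the others. Rps19-ps1 and Rps19-ps2 had the same reads in all 16. The 4 Rpl35a copies are therefore 1 measurement, although they count 4 times among the ratios that rose. Rpl35a-ps2 counted 479, 494, 598 and 416 in CON-LFD, 790.2, 509, 429 and 621 in DIO-HFD, 540.5, 552, 644 and 562 in DIO-LFD and 867, 675, 729.7 and 649 in DIO-VSG. Its ratio to Rpl35a rose in DIO-HFD (0.39 ± 0.11, limma adjusted p = 0.024) and DIO-LFD (0.41 ± 0.11, limma adjusted p = 0.017) relative to CON-LFD. These calls were lost on leaving out any of 4 and of 2 of the 16 libraries, respectively.

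Rpl18-ps1 could not be aligned to the parent its symbol names. It lies at chr1:60900898-60901422, plus strand, on the same strand within an intron of Ctla4, a T cell inhibitory receptor gene, and it shares no window with Rpl18. Counts were 507, 488, 476 and 424 in CON-LFD, 1238, 603, 625 and 681 in DIO-HFD, 794, 1053, 1078 and 721 in DIO-LFD and 791, 908, 529.6 and 629 in DIO-VSG. The CON-LFD libraries were below all others. Its log2 ratio to Rpl18 was called for DIO-LFD against CON-LFD (0.65 ± 0.17, limma adjusted p = 0.017), a ratio to a gene with which it could not be aligned. Ctla4 itself ranged from 21.1 to 984 normalized counts.

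The other members with called ratios against CON-LFD were, among those that fell, Rpl17-ps10 (-0.62 ± 0.16 in DIO-LFD), Rps24-ps3 (-0.50 ± 0.12), Rps19-ps6 (-0.54 ± 0.15), Rpl9-ps4 (-0.48 ± 0.14), Rpl36a-ps2 (-0.33 ± 0.10), Rpsa-ps11 (-0.32 ± 0.09) and Rpl9-ps7 (-0.20 ± 0.07), with Rpl23a-ps2 (-1.31 ± 0.34) and Rps2-ps10 (-0.48 ± 0.16) in DIO-HFD alone. Among those that rose in DIO-LFD were Rps26-ps1 (0.75 ± 0.24), Rps4x-ps (0.56 ± 0.18), Rpl13a-ps1 (0.72 ± 0.23), Rpl31-ps20 (1.12 ± 0.31) and Rpl21-ps11 (2.66 ± 0.89), each value a log2 ratio change ± SE. Many of these calls depended on single libraries: leaving out 1 library ended that of Rpl9-ps7 for 15 of the 16 libraries, Rps2-ps10 for 12, Rpl21-ps11 for 11, Rpl36a-ps2 for 7, Rps26-ps1, Rps4x-ps and Rpl13a-ps1 for 6 each, and Rpsa-ps11 for 4. Rpl21-ps11 counted 0, 18.02, 0 and 0 in CON-LFD, so its change rests on 3 libraries at 0, and Rpl31-ps20 and Rpl23a-ps2 had means of only 9.41 and 9.05.

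A few members jumped between libraries of the same group. Rpl36-ps2 counted 276, 675, 532 and 0 in CON-LFD and 883, 926, 1411 and 1003 in DIO-VSG, so 1 CON-LFD library stood at 0 beside 275.9 to 675 in the others. Rps15a-ps6 counted 0, 12.7, 58.1 and 0 in CON-LFD and 20.7, 102, 14.3 and 44.9 in DIO-LFD, and Rps18-ps3 11.04, 21.2, 0 and 0 and 0, 46.6, 64.8 and 0. Rpl13-ps6 ranged from 0 to 19.7. Their parents varied far less: Rpl36 from 6813 to 10953, Rps15a from 4937 to 13289, Rps18 from 13879 to 25016 and Rpl13 from 3778 to 8168. In the fit over all 16 libraries none of these 4 members passed in any comparison, as a level or as a ratio, and Rpl36-ps2 passed as a level for DIO-VSG against DIO-LFD when only those 8 libraries were fitted. Between DIO-LFD and DIO-HFD the smallest unadjusted p values belonged to Rps12-ps3 (log2 difference 0.73 ± 0.34, limma adjusted p = 0.58), Rpl31-ps14 (0.65 ± 0.33, limma adjusted p = 0.64) and Rpsa-ps4 (-0.89 ± 0.47, limma adjusted p = 0.66).

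Summed over all members, the pseudogenes held a share of ribosomal protein reads between 33.6 and 37.8%. Members took 36.3, 35.6, 36.5 and 37.8% of the normalized counts of members plus parents in CON-LFD, 34.4, 35.2, 33.6 and 35.1% in DIO-HFD, 34.9, 33.95, 34.3 and 34.1% in DIO-LFD and 35.1, 34.8, 35.96 and 35.6% in DIO-VSG. The CON-LFD libraries lay above all DIO-HFD and DIO-LFD libraries, and DIO-VSG overlapped with each of the other groups. When each parent was summed with its copies, 49 of 49 family sums had a higher group mean in DIO-VSG than in CON-LFD, 43 were higher in DIO-HFD and 33 in DIO-LFD. Their median log2 differences were 0.41, 0.15 and 0.06, beside fitted medians of -0.02, 0.02 and 0.02 over all tested genes. Parents held most of the summed counts, and of the 49 parents alone 49, 42 and 42 had a higher fitted level.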

How the data were processed

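Stranded total RNA libraries of 16 mice were sequenced with paired reads of 76 bases. The authors' deposited table holds log2 values after variance stabilization by DESeq2, from 5.36 to 21.85, for genes with at least 10 reads over all libraries. The submitters' processing notes name TopHat2 2.0.7, HTSeq 0.5.3p9 and mm10, whereas the study's methods name STAR and salmon with Gencode, so how reads shared by copy and parent were assigned is uncertain. The values were inverted to normalized counts and to reads, and 100% came out whole within 0.02. No column lacked a sample (0). The 21218 genes that reached 10 normalized counts in 4 or more libraries were tested as log2(normalized count + 1) in limma 3.58.1 (R 4.3.3), with trend, group as the only term, all 16 libraries and Benjamini-Hochberg adjustment at 0.05, two-sided. Ratios to the parent were tested in limma over 189 of 223 pairs of any family. Scripts were tested on simulated data. No 2 replicates agreed within sampling noise (chi-square per gene between replicates at least 64.4). The Gencode release behind the counts was not given in the sources used here. Sequences and positions came from GENCODE M21 on GRCm38, which may differ from it, aligned with blastn 2.17.0, and were compared by exact windows of 76 bases.

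The members and gene lists were chosen with earlier results of these data known. Named were members or ratios past the adjusted threshold, the 10 of highest mean, the 3 of smallest p in each comparison, and the 5 of largest range and of largest ratio SD. Alternatives were a pseudocount of 5, no filter, the deposited values, quantile normalization, a replicate block, voom weights on the reads, only the 8 libraries compared, each library left out, and, chosen after seeing the data, a B cell covariate. Each library is a separate mouse by its label, and p-values measure the spread between mice. Counts of copies and parents cannot be separated where their sequence is the same.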

Additional observations from a re-analysis of the deposited data

Results flagged for a closer look

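Among 208 groups of 4 libraries tested, over 18 members, their parents and their ratios, 14 held 1 library apart from the other 3 (gap over range above Dixon's 95% critical value); chance flags about 1 in 20 groups. For Rpl23a-ps3, DIO-VSG replicate 2 held 92.6 normalized counts, with 0 in the others, and a log2 ratio to Rpl23a of -6.29 beside -12.70 to -12.65. In DIO-VSG replicate 1, Rpl19-ps11 was at 17368 (others 13796 to 14354) and Rps10 at 21519 (others 18458 to 18870). Rpl28-ps1 stood at 11426 in CON-LFD replicate 2 (others 13831 to 14221), where the log2 ratio of Rpl19-ps11 was -0.46 (others -0.12 to -0.05). In DIO-HFD replicate 1, the library with the highest B cell marker sum, Rpl18-ps1 was at 1238 (others 603 to 681). Rpl10 was at 2836 in DIO-VSG replicate 2 (others 2466 to 2504), where the log2 ratio of Rpl30-ps9 was 0.95 (others 1.26 to 1.32). In DIO-LFD replicate 3, Rpl30 was at 4683 (others 4088 to 4135), Rpl35a at 5590.0 (others 5136 to 5173) and the log2 ratio of Rpl30-ps9 at 0.66 (others 0.75 to 0.76). The log2 ratio of Rpl19-ps11 was -0.74 in DIO-LFD replicate 4 (others -0.82 to -0.81), and that of Rpl18-ps1 was -4.84 in CON-LFD replicate 3 (others -4.49 to -4.48).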

How the results depend on the processing

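No named change reversed its direction in any refit. Of 439 refits of the 63 called ratios with other settings, 340 kept the call and 99 lost it, and with 1 library left out 855 of 1008 kept it; 30 of the 63 calls held without each of the 16 libraries in turn. The causes of the shifts below were not tested.

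Genes past the adjusted threshold, 8 for DIO-HFD against CON-LFD, numbered 3 with quantile normalization, 1 with the replicate block, 0 with voom weights, 17 with the B cell covariate, 0 with only the 8 libraries compared and 0 to 128 with 1 library left out. For DIO-LFD against CON-LFD (1) they numbered 2 with a pseudocount of 5 and with the deposited values, 0 with the replicate block, voom weights or only 8 libraries, 7 with the covariate and 0 to 6 with 1 library left out. From 0 they became 1582 with only 8 libraries for DIO-VSG against DIO-LFD; for DIO-VSG against CON-LFD they became 1 with the deposited values or the covariate, 2 with only 8 libraries and 873 without CON-LFD replicate 3 (range 0 to 873); and the range was 0 to 1 for DIO-VSG and for DIO-LFD against DIO-HFD.

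Members at an unadjusted p of 0.05 numbered 11 with only 8 libraries for DIO-HFD against CON-LFD (18; 13 to 26 with 1 library left out). For DIO-VSG against DIO-HFD (20) they numbered 11 with the covariate and 10 to 42 with 1 library left out, the extremes without DIO-HFD replicates 3 and 1 (all genes 2794; 1839 and 5841). They were 2 with no filter, 0 with the deposited values, replicate block or voom weights and 8 with the covariate for DIO-LFD against DIO-HFD (1; 0 to 5). For DIO-VSG against DIO-LFD (27) only 8 libraries gave 42, and leaving out 1 library 14 to 36, lowest without DIO-VSG replicate 1 (all genes 2061; 5267 and 1085). The covariate gave 12 for DIO-VSG against CON-LFD (36; 24 to 44), and 28 for DIO-LFD against CON-LFD (22; 15 to 27 with 1 library left out).

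Ratios over all pairs and over members were 17 and 10 with quantile normalization and 4 and 3 with only 8 libraries for DIO-HFD against CON-LFD (39 and 24; 19 to 52 and 13 to 34 with 1 library left out). They were 20 and 12, and 23 and 13, for DIO-LFD against CON-LFD (50 and 31; 24 to 59 and 16 to 39). For DIO-VSG against DIO-HFD (4 and 4) they were 2 and 2 with the replicate block, 0 and 0 with the covariate, 1 and 1 with only 8 libraries and 0 to 5 with 1 library left out, 0 without DIO-VSG replicate 4. For DIO-VSG against DIO-LFD, all pairs were 10 with only 8 libraries (5; 4 to 6 with 1 library left out) and members 6 (4; 4 to 5). For DIO-VSG against CON-LFD (0) they were 1 with the covariate, and 0 to 17 and 0 to 12 with 1 library left out. The replicate block was run although the numbers do not pair the mice: same-numbered libraries correlated at -0.61 to 0.53, with 9 of 24 pairs over 0.1 and 7 of 24 highest for the same number.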
